A study of Homo sapiens and Mus musculus with 7 samples.

Results

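Bile acid synthesis and transport was followed through 10 genes on 7 Affymetrix arrays of human cancer cells and mouse liver with reduced or absent Fas (CD95), the cell surface receptor through which Fas ligand can start apoptosis. The genes were SLC10A1, SLC10A2, ABCB11, ABCB4, NR1H4, NR0B2, CYP7A1, CYP8B1, CYP27A1 and BAAT. They were chosen by name, and a probe set counted as theirs when the array annotation gave it that single symbol, ignoring case in mouse. All 10 had such a probe set on the mouse array (14 probe sets, among 18193 genes) and 9 on the human array (11 probe sets, among 19773 genes), where NR1H4 was not analysed here.

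Each group was 1 array of total RNA. Liver tissue came from Fas knock-out and from wild-type C57/BL6 mice, male and aged 2 months in both groups, and no other allele is named. HepG2, a human liver cancer cell line, carried a stable FAS knockdown by the hairpin shRNA6, with a pLKO control (the lentiviral vector used to express hairpins). HeyA8, a human ovarian cancer cell line that serves here as a contrast without liver identity, carried the hairpin shRNA4 or the hairpin shRNA6, again with a pLKO control. The labels call the hairpin cells knock-down in one field and knock-out in another, and they do not say whether lines are clones or mouse tissue was pooled.

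Bile acids are made from cholesterol in hepatocytes. CYP7A1 catalyses the rate-limiting step of the classical route, CYP8B1 sets the share of cholic acid, CYP27A1 hydroxylates the sterol side chain and opens the alternative route, and BAAT joins the products to glycine or taurine. The exporters ABCB11 (bile salts) and ABCB4 (phosphatidylcholine) fill the canaliculus, SLC10A1 takes bile salts up from portal blood, and SLC10A2 reabsorbs them in ileum and bile duct epithelium. The nuclear receptor NR1H4 (FXR) senses bile acids and induces NR0B2 (SHP), a repressor of CYP7A1.

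Values are MAS5 signals in arbitrary units, which compare the same probe set between arrays and not one gene with another. Array medians lay between 57.8 and 63.4 on the human arrays and were 75.2 in the Fas knock-out liver and 79.9 in the wild-type liver, and a signal at or below its array's median is called dim here. Log2 ratios were taken after adding 12.6 to human and 20.5 to mouse signals, so low signals give ratios that are too small. Comparisons hold the genes that exceeded the array median on 1 array or more, here called kept, and those that exceeded the 75th percentile somewhere are called bright. Single comparisons had no replicate and no test, and their genes are counted when they differed at least 2-fold.

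Fas itself was lower wherever it was targeted. Its signal was 169 in the Fas knock-out liver and 560 in the wild-type liver, 631 in HepG2 shRNA6 and 1087 in HepG2 pLKO, and 1184 in HeyA8 shRNA4 and 856 in HeyA8 shRNA6 against 2104 in HeyA8 pLKO. The log2 ratios of FAS were -1.61 in mouse liver, -0.77 in HepG2, -0.82 for HeyA8 shRNA4 and -1.29 for HeyA8 shRNA6. The sources used here do not give what the mouse allele lacks, so its remaining signal checks the label only in part. Of 10 hepatocyte marker genes, 9 with a mouse probe set summed to 291264 in the knock-out and 287707 in the wild-type liver. All 10 summed to 133971 and 129765 in HepG2 shRNA6 and pLKO, and to between 557 and 625 in the HeyA8 arrays. Albumin (ALB) had signals of 26700 and 28770 in HepG2 shRNA6 and pLKO, against 20.3, 6.77 and 3.90 in HeyA8 shRNA4, shRNA6 and pLKO.

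In mouse liver 1 of the 10 genes stood apart. Slc10a2, the apical sodium-dependent bile acid transporter, had a signal of 288 in the Fas knock-out liver and 2251 in the wild-type liver, so the knock-out signal was 12.8% of the wild-type one (log2 ratio -2.88). It had 1 probe set. The knock-out value lay below the 75th percentile of its array (360) and the wild-type value above that of its own (381). Among the 7065 bright genes, Slc10a2 had the 3rd lowest ratio, but it was bright only through the wild-type array, where it was higher. That rank is thus no support. Among the 12047 genes kept, where Slc10a2 exceeded the median of both arrays, it had the 6th lowest ratio. It was the 1 gene of the 10 that differed at least 2-fold, against 4.34% of all genes kept. Across 7 other settings of pseudocount, scaling, filter and probe set rule its log2 ratio stayed between -2.92 and -2.79.

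**Figure D1:**
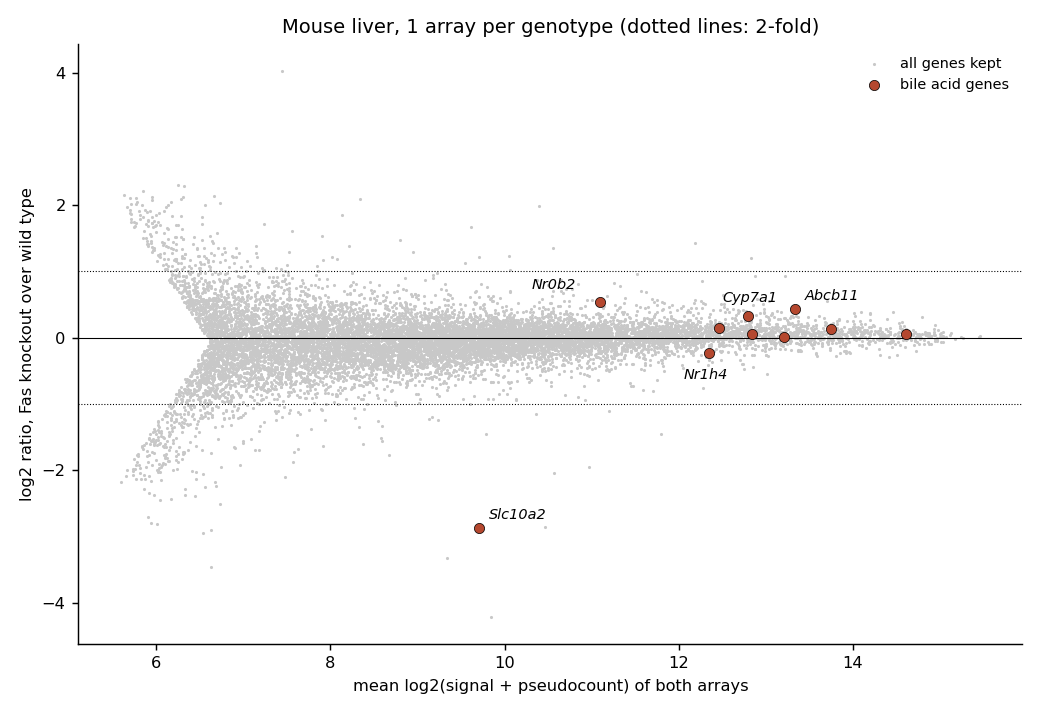
Log2 ratio of Fas knock-out over wild-type liver against the mean log2 signal of both arrays for the 12047 genes kept (grey) and the 10 bile acid genes (red), with 1 array per genotype. Slc10a2 lies at -2.88, below the dotted 2-fold line, and the other 9 lie between -0.24 and 0.54.

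The other uptake transporter, Slc10a1, the basolateral transporter of hepatocytes, had signals of 25428 in the knock-out and 24452 in the wild-type liver (log2 ratio 0.06). Its second probe set read 17916 in the knock-out and 18187 in the wild-type liver (-0.02). Of the uptake transporters, Slc10a2 was thus beyond 2-fold in this pair of livers and both probe sets of Slc10a1 were near 0.

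Of the canalicular exporters, Abcb11, the bile salt export pump, had 12008 in the knock-out and 8879 in the wild-type liver (log2 ratio 0.43), a ratio reached in size by 7.93% of bright genes. Abcb4, which flips phosphatidylcholine into bile, had 7456 in the knock-out and 7151 in the wild-type liver (0.06). Neither difference came near 2-fold.

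Of the nuclear receptors, Nr0b2 had 2617 in the knock-out and 1797 in the wild-type liver (log2 ratio 0.54), a size that 4.60% of bright genes reached. Nr1h4, which encodes the bile acid receptor FXR, had 4778 in the knock-out and 5640 in the wild-type liver (-0.24), a size reached by 25.6% of bright genes. The receptor was thus on the lower side and Nr0b2 on the higher side of this pair.

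Of the synthesis enzymes, Cyp7a1 had 7896 in the knock-out and 6310 in the wild-type liver (log2 ratio 0.32), which 15.3% of bright genes reached in size. Its second probe set read 1368 in the knock-out and 926 in the wild-type liver (0.55), so both probe sets were on the higher side. Cyp27a1 had 14390 in the knock-out and 13155 in the wild-type liver (0.13), and its second probe set was dim in both at 37.0. Cyp8b1 had 9428 in the knock-out and 9380 in the wild-type liver, a log2 ratio of 0.01 that lay between -0.05 and 0.10 under other settings and so has no direction. The conjugating enzyme Baat had 5904 in the knock-out and 5335 in the wild-type liver (0.15), and its second probe set had 1630 and 1446 in the same order (0.17).

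Together, 8 of the 10 genes had a log2 ratio above 0 and their median was 0.09, beside 47.3% above 0 and a median of -0.02 over all genes kept. With quantile normalization 7 were above 0, Cyp8b1 having turned. With the arrays scaled to equal medians the median of the 10 was 0.18 and that of all genes kept 0.07. All 10 were above the 75th percentile in the wild-type liver, and 9 were in the knock-out, Slc10a2 being the exception. Of all 18193 mouse genes 7065 were above it on 1 array or both.

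Other genes of bile acid synthesis and conjugation showed ratios of less than 2-fold, with 10 of 15 above 0 and a median log2 ratio of 0.12. Cyp39a1, which hydroxylates 24-hydroxycholesterol, had 1138 in the knock-out and 785 in the wild-type liver (0.53). Hsd3b7, the sterol dehydrogenase early in the pathway, had 19935 in the knock-out and 15260 in the wild-type liver (0.39). The brain cholesterol hydroxylase Cyp46a1 (114 in the knock-out and 88.9 in the wild-type liver, 0.30) and the side chain oxidase Acox2 (7080 and 5768 in the same order, 0.29) came next in size.

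Of the other transport genes, 13 of 14 were kept, 8 of them above 0, with a median log2 ratio of 0.07. The 1 gene that reached 2-fold, beside 4.34% of all genes kept, was Slco1a4, an organic anion uptake transporter, with 1253 in the knock-out and 530 in the wild-type liver (1.21). Slc51b, a subunit of the basolateral bile acid exporter, had 87.4 in the knock-out, close to that array's median, and 38.8 in the wild-type liver (0.86), where it was dim. Slc51b thus passed the filter only through the knock-out array. Its partner subunit Slc51a had 112 in the knock-out and 90.4 in the wild-type liver (0.25). Abcc2, the canalicular exporter of conjugated organic anions, had 5269 in the knock-out and 3845 in the wild-type liver (0.45).

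The other regulators lay near 0, with 8 of 12 kept genes above it and a median log2 ratio of 0.00. Nr1i3, the xenobiotic receptor CAR, had 1943 in the knock-out and 2713 in the wild-type liver (-0.48). Ppargc1a, a coactivator of fasting metabolism, had 584 in the knock-out and 456 in the wild-type liver (0.34). The receptors Rxra (0.13) and Nr1h3 (0.09) differed less.

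Slc10a2 is also expressed by bile duct epithelium, and in tissue fewer cells of a type and less RNA per cell cannot be told apart. Of 7 cholangiocyte markers, 5 had a probe set, and their signals summed to 237 in the knock-out and 402 in the wild-type liver. Of these, 3 were kept. Sox9 had 10.3 in the knock-out and 147 in the wild-type liver (log2 ratio -2.44), and Epcam had 53.5 in the knock-out and 198 in the wild-type liver (-1.56). Krt7, a duct keratin, went the other way, with 76.3 in the knock-out, just above that array's median, and 9.55 in the wild-type liver (1.69), and the 2 markers not kept were dim on both arrays. Sox9 and Epcam were dim in the knock-out and Krt7 in the wild-type liver. Each of these 3 thus passed the filter only through the array where it was higher, so their ratios and the sums that hold them are no support. Of 5 enterocyte markers with a probe set, Fabp2 alone was kept, at 7048 in the knock-out and 5857 in the wild-type liver (0.27).

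Other marker lists differed as well in this pair. All 6 macrophage markers were lower in the knock-out, with sums of 18524 in the knock-out and 22749 in the wild-type liver, and their median log2 ratio was -0.25. Of 5 sinusoidal endothelial markers 4 were lower (median -0.32; Lyve1 -0.45, Pecam1 -0.41, Stab2 -0.32, Kdr -0.09) and Clec4g was higher (0.16), with sums of 9209 in the knock-out and 9567 in the wild-type liver that Clec4g dominates. The 6 stellate cell markers summed to 16874 in the knock-out and 18729 in the wild-type liver, with 5 of 6 below 0. Of 7 lymphocyte markers with a probe set 6 were dim on both arrays, and Cd8a had 88.7 in the knock-out and 103.7 in the wild-type liver (-0.19). Several bile acid genes follow the time of day and the position in the lobule. Of 12 clock genes kept, 10 were lower in the knock-out (median log2 ratio -0.19). Nr1d1 had 208 in the knock-out and 67.2 in the wild-type liver (1.38), where it was dim. Nr1d1 thus passed the filter only through the knock-out array, where it was higher. Per2 had 531 in the knock-out and 1080 in the wild-type liver. The zonation lists had no common direction. Of 8 pericentral genes 6 were above 0 (median log2 ratio 0.07), with Glul, glutamine synthetase, at 0.55 and the glutamate transporter Slc1a2 at -0.29. Of 6 periportal genes 3 were above 0 (median -0.02), with Ass1, of the urea cycle, at -0.72 and Hal (0.52) and Cdh1 (0.46) on the higher side. The part of cell composition, time of collection or lobule position in the ratios of the bile acid genes was not tested, and with 1 array per genotype the genotype and the animal cannot be told apart.

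In the human cells 4 of the bile acid genes were called higher in the liver line than in the ovarian line (30.0% of all genes tested were). These were NR0B2, CYP27A1, ABCB4 and CYP8B1. Of them, NR0B2 and CYP8B1 entered the test only through the HepG2 arrays, so the count is no support. Another 4 genes were dim in both lines. On each HepG2 array 2 of the 9 genes were above the 75th percentile and 4 were dim. Over both HepG2 arrays 2 of the 9 were bright and 5 kept, beside 7775 and 12167 of all 19773 human genes. HepG2 thus showed no excess of these genes. On no HeyA8 array was any of them above the 75th percentile, and 7, 8 and 7 were dim on shRNA4, shRNA6 and pLKO. Of all genes, 7674 were bright over HeyA8 shRNA4 and pLKO, and 7627 over HeyA8 shRNA6 and pLKO.

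**Figure D2:**
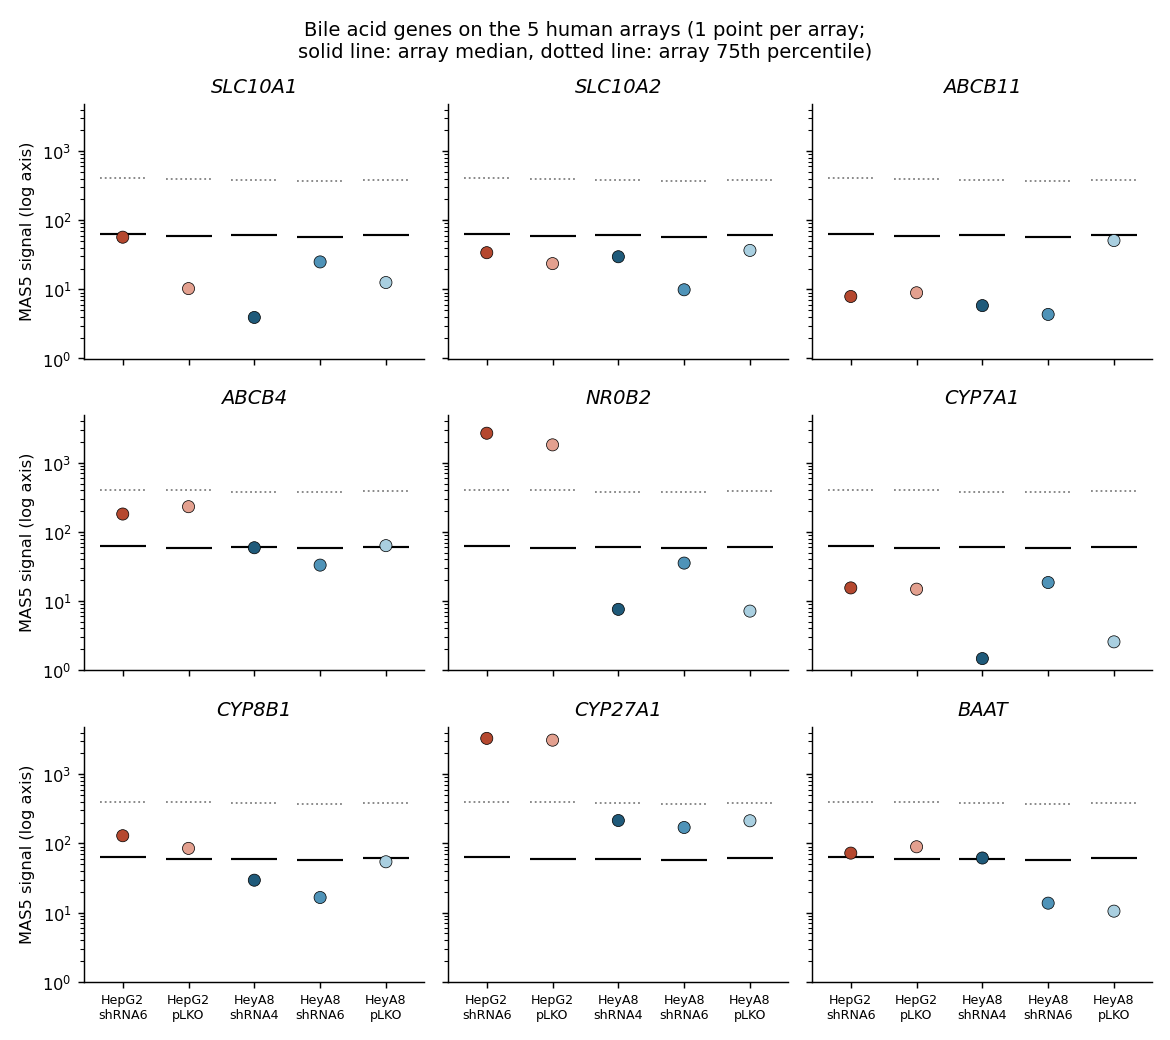
MAS5 signal (log axis) of the 9 bile acid genes on the 5 human arrays, 1 point per array, with the array's median as a solid and its 75th percentile as a dotted line. NR0B2 and CYP27A1 lie above the dotted line on both HepG2 arrays, and SLC10A1, SLC10A2, ABCB11 and CYP7A1 lie at or below the solid line on all 5 arrays.

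NR0B2 had signals of 2671 and 1813 in HepG2 shRNA6 and pLKO, against 7.56, 35.3 and 7.13 in HeyA8 shRNA4, shRNA6 and pLKO. Both HepG2 arrays were bright and all 3 HeyA8 arrays dim, so NR0B2 passed the filter on dim genes only through HepG2. In a limma fit of all 5 arrays with cell line and knockdown as terms the difference was 6.48 ± 0.38 on the log2 scale (SE, 95% interval 5.59 to 7.37, adjusted p = 3.34e-06 over 13936 genes).

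CYP27A1 had 3308 and 3117 in HepG2 shRNA6 and pLKO, against 214, 170 and 213 in HeyA8 shRNA4, shRNA6 and pLKO. It was above the median on every array, and the lines did not overlap. BAAT, which was not called, did not overlap either, and the share of all genes without overlap was not counted. Lack of overlap is thus no support. The difference of CYP27A1 was 3.93 ± 0.16 (SE, 95% interval 3.56 to 4.30, limma adjusted p = 5.01e-07).

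ABCB4 had 181 and 231 in HepG2 shRNA6 and pLKO, against 58.9, 33.0 and 63.1 in HeyA8 shRNA4, shRNA6 and pLKO (1.73 ± 0.34 SE, 95% interval 0.94 to 2.52, limma adjusted p = 0.00277). Its second probe set had 114 and 115 in HepG2 shRNA6 and pLKO, against 5.56, 5.79 and 21.0 in HeyA8 shRNA4, shRNA6 and pLKO. Both probe sets were higher on each HepG2 array than on any HeyA8 array. Without the HepG2 shRNA6 array the adjusted p of ABCB4 was 0.0582.

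CYP8B1 had 129 and 84.7 in HepG2 shRNA6 and pLKO, against 29.3, 16.5 and 54.2 in HeyA8 shRNA4, shRNA6 and pLKO, where it was dim throughout. Its difference of 1.39 ± 0.48 (SE) passed narrowly (limma adjusted p = 0.0388), and the adjusted p lay between 0.0230 and 0.557 over 13 other settings. It did not pass without the HepG2 shRNA6 array (0.557), without HeyA8 shRNA4 (0.0622) or without HeyA8 shRNA6 (0.0710).

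BAAT had 72.3 and 89.4 in HepG2 shRNA6 and pLKO, against 61.5, 13.7 and 10.5 in HeyA8 shRNA4, shRNA6 and pLKO. Its difference of 1.46 ± 0.60 (SE, 95% interval 0.07 to 2.85) did not pass (limma adjusted p = 0.0682), but passed without HeyA8 shRNA4 (0.0190). The HeyA8 shRNA4 array is the 1 that brought the lines close for this gene.

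The other 4 genes were dim on all 5 arrays and were not in the fit. SLC10A1 had 56.9 and 10.3 in HepG2 shRNA6 and pLKO, against 3.92, 25 and 12.6 in HeyA8 shRNA4, shRNA6 and pLKO. SLC10A2 had 33.9 and 23.6 in HepG2 shRNA6 and pLKO, against 29.7, 9.87 and 36.6 in HeyA8 shRNA4, shRNA6 and pLKO. CYP7A1 had 15.4 and 14.8 in HepG2 shRNA6 and pLKO, against 1.47, 18.5 and 2.56 in HeyA8 shRNA4, shRNA6 and pLKO. ABCB11 had 7.89 and 8.93 in HepG2 shRNA6 and pLKO, against 5.82, 4.34 and 50.9 in HeyA8 shRNA4, shRNA6 and pLKO, and its second probe set ranged from 3.76 to 31.9. For each of these 4 genes the ranges of the lines overlapped. Without the filter on dim genes their adjusted p lay at 0.327 for SLC10A1, 0.848 for SLC10A2, 0.317 for CYP7A1 and 0.417 for ABCB11 in limma.

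Of the 5 genes tested, 4 were thus called higher in HepG2 and 0 lower, where 30.0% of all genes tested were called higher and 28.0% lower. NR0B2 and CYP8B1 entered the test only through the HepG2 arrays, so their share is no support. The labels do not say that samples of a line were separate cultures, so these p-values measure only a spread between arrays that may be technical. The lines also differ in tissue of origin and donor, which cannot be told apart here.

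Promoter sequence of genes that differed in this comparison is shown beside that of genes that did not. RefSeq windows of GRCh38.p14, from 250 bases before to 50 after a gene's start, were used for 6 of the 10 genes (SLC10A1, SLC10A2, ABCB11, NR1H4, CYP27A1 and BAAT). ABCB4, NR0B2, CYP7A1 and CYP8B1 are named only. The window of CYP27A1, above the median on all 5 arrays, is followed by those of SLC10A1 and ABCB11, which were dim on all 5. Capitals mark a GC box (GGGCGG) in CYP27A1, the nuclear receptor motif AGGTCA in SLC10A1 and, in ABCB11, the inverted repeat core GGNCA, any base, TGANC, the kind of element that FXR binds.
CYP27A1 promoter, GRCh38.p14 chr2:218781897-218782196, plus strand: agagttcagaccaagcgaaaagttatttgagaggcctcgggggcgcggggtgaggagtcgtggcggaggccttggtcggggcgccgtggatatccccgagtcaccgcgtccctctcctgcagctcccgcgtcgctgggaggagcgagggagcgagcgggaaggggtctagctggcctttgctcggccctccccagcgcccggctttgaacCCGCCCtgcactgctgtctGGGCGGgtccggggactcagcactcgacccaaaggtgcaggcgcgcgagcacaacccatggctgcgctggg
SLC10A1 promoter, GRCh38.p14 chr14:69797192-69797491, minus strand: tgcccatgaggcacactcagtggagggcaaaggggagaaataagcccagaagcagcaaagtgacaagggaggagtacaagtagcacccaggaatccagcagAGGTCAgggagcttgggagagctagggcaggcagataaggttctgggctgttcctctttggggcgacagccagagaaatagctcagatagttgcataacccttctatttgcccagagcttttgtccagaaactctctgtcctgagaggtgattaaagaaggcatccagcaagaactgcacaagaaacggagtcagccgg
ABCB11 promoter, GRCh38.p14 chr2:169031275-169031574, minus strand: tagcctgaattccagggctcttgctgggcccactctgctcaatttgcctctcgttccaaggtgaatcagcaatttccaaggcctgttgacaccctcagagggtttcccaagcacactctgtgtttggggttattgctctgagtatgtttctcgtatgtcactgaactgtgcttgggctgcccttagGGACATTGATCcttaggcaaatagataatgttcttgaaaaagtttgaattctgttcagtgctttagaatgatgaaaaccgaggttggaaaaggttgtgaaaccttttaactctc
Motifs were searched on both strands, and those spelled here do not contain each other. The CYP27A1 window had 68.7% G and C and 29 CpG, with GC boxes starting 40 bases before the start on the minus strand and 21 bases before it on the plus strand. The SLC10A1 window had 52.3% G and C and 3 CpG, with its AGGTCA 149 bases before the start. The ABCB11 window had 45% G and C and 3 CpG, and its inverted repeat GGACATTGATC lay 64 bases before the start. Over 35116 windows of this length the median was 58.7% G and C and 14 CpG. The GC box was in 45% of them, AGGTCA in 13.8% and the inverted repeat core in 0.92%. That core was spelled as an imperfect inverted repeat. It allows any base where the ABCB11 match departs from an exact inverted repeat of GGTCA, so its share cannot be set beside the others.

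The rest of the pathway differed between the lines in both directions. Of 9 other synthesis and conjugation genes tested, 6 were higher in HepG2 and 0 lower, beside 30.0% and 28.0% of all genes tested. Of the 6, 4 (SULT2A1, AKR1D1, SLC27A2 and SLC27A5) passed the filter on dim genes only through the HepG2 arrays, so the count is no support, and the other two were ACOX2 (log2 difference 2.84) and HSD17B4 (1.06). SULT2A1, the bile acid sulfotransferase, had 4297 and 2994 in HepG2 shRNA6 and pLKO, against 10.7, 14.0 and 1.99 in HeyA8 shRNA4, shRNA6 and pLKO (log2 difference 7.55, limma adjusted p = 1.72e-07). AKR1D1, the 5-beta reductase (6.11), and the acyl-CoA synthetases SLC27A2 (4.77) and SLC27A5 (4.32) followed.

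Of 13 other transport genes tested, 8 were higher and 5 lower in HepG2, beside 30.0% and 28.0% of all genes tested. Of the 8, 7 passed the filter only through HepG2, SLCO2B1 (3.18) being the exception, and of the 5, 3 (SLCO1B3, SLCO1B1 and FABP6) passed it only through HeyA8, so these counts are no support either. ABCC2 had 3160 and 2528 in HepG2 shRNA6 and pLKO, against 5.41, 3.13 and 3.26 in HeyA8 shRNA4, shRNA6 and pLKO (7.46, limma adjusted p = 2.96e-07). ABCC3, a basolateral exporter (6.38), and ABCG5, one part of the sterol exporter (6.07), were also higher. SLCO1B3, a hepatocyte uptake transporter of bile salts, went the other way, with 1.74 and 21.4 in HepG2 shRNA6 and pLKO, against 5427, 4584 and 4287 in HeyA8 shRNA4, shRNA6 and pLKO (-7.82, limma adjusted p = 3.66e-07). The other genes lower in HepG2 were FABP6, SLCO1B1, ATP8B1 and ABCC4, at differences from -1.83 to -1.15.

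Of 9 other regulators tested, 6 were higher in HepG2 and 0 lower, beside the same 30.0% and 28.0%. Of the 6, 4 (KLB, FGFR4, FOXA2 and PPARGC1A) passed the filter only through HepG2, and NR1H3 (2.61) and PPARA (1.69) passed it in both lines. KLB, the co-receptor for FGF19, had 6156 and 4354 in HepG2 shRNA6 and pLKO, against 5.09, 14.6 and 37.1 in HeyA8 shRNA4, shRNA6 and pLKO (7.42, limma adjusted p = 1.77e-06). Its receptor FGFR4 (6.36), the liver factor FOXA2 (6.22) and PPARGC1A (3.88) followed. All 10 hepatocyte markers were higher in HepG2, and the 3 ovarian and coelomic markers tested, PAX8, WT1 and MSLN, were lower. Over all genes tested 30.0% were higher and 28.0% lower. Of the hepatocyte markers 6 passed the filter only through HepG2, and MSLN passed it only through HeyA8, so these counts are no support.

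**Figure D3:**
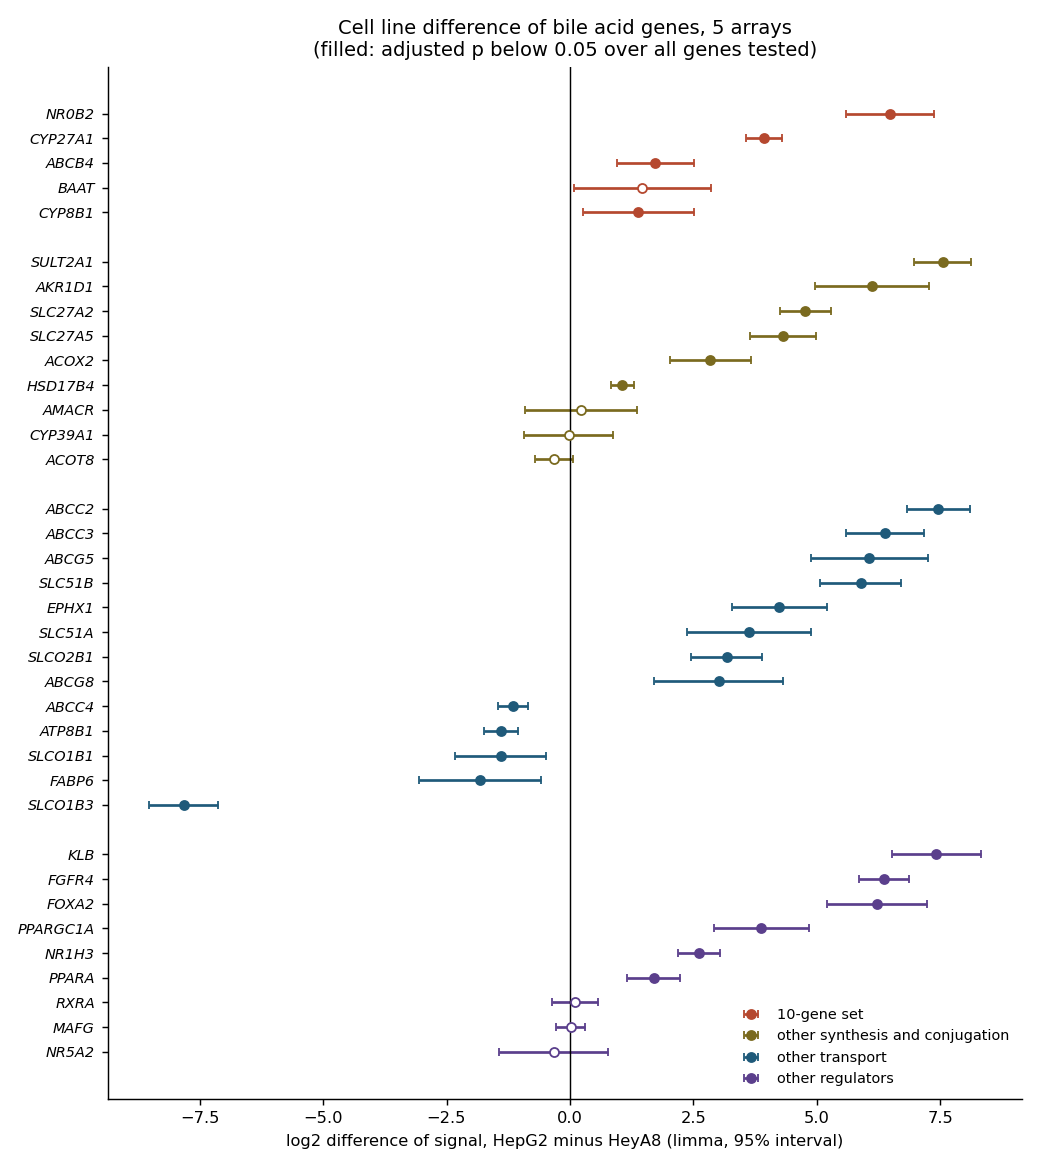
Limma log2 difference of HepG2 over HeyA8 with its 95% interval for the 5 bile acid genes tested and the other synthesis, transport and regulator genes tested, from 5 arrays. Filled points passed an adjusted p of 0.05 over 13936 genes. NR0B2 at 6.48 and CYP27A1 at 3.93 lead the 10-gene set, and SLCO1B3 lies at -7.82.

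In HepG2 shRNA6 the 5 bile acid genes kept lay within 2-fold of pLKO. Of all genes kept, 5.22% differed at least 2-fold, and at this share the 5 genes say little. FAS itself (log2 ratio -0.77) was also within 2-fold in this pair. NR0B2 had 2671 in shRNA6 and 1813 in pLKO (log2 ratio 0.56), a size that 3.96% of 7775 bright genes reached. CYP8B1 had 129 in shRNA6 and 84.7 in pLKO (0.54). CYP27A1 had 3308 in shRNA6 and 3117 in pLKO (0.09, but -0.03 with the arrays scaled to equal medians). BAAT had 72.3 in shRNA6 and 89.4 in pLKO (-0.26), and ABCB4 had 181 in shRNA6 and 231 in pLKO (-0.33), with its second probe set level (-0.01). NR0B2 was thus on the higher side both here and in the knock-out liver, at 0.56 and 0.54, each from 1 pair of arrays. This was not particular to NR0B2. Other pathway genes, AKR1D1 and ACOX2 among them, were also higher in both pairs, while some, such as ABCG5, differed in direction.

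Around them, 6 of 9 other synthesis and conjugation genes were above 0 in HepG2 shRNA6, with a median log2 ratio of 0.52, beside 48.3% and a median of -0.01 over all genes kept. That median was 0.37 when probe sets of a gene were averaged and 0.01 without the filter on dim genes. AKR1D1 had 1785 in shRNA6 and 1063 in pLKO (0.74), and ACOX2 had 3042 in shRNA6 and 1983 in pLKO (0.61). CYP39A1 had 43.9 in shRNA6, where it was dim, and 87.0 in pLKO (-0.82). AMACR, a racemase of side chain shortening, had 77.8 in shRNA6 and 39.3 in pLKO, where it was dim (0.80). Both passed the filter only through the array where they were higher.

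Of 10 other transport genes kept, 9 were above 0, with a median of 0.31. The 1 gene at least 2-fold higher was SLC51A, a subunit of the basolateral bile acid exporter, at 312 in shRNA6 and 103 in pLKO (1.49). EPHX1 (0.52), ATP8B1 (0.35) and ABCG8 (0.34) were next on the higher side. Of 8 other regulators kept, 5 were above 0, with a median of 0.08. RXRA, the partner receptor of FXR, had 1040 in shRNA6 and 627 in pLKO (0.72), and KLB had 6156 in shRNA6 and 4354 in pLKO (0.50), while MAFG and FOXA2 both had -0.22. With the arrays scaled to equal medians the median of all genes kept was -0.12 and the median of these regulators -0.03, each group keeping its distance from all genes. Among the hepatocyte markers FGB had 12105 in shRNA6 and 5792 in pLKO (1.06), and the median of all 10 was -0.03.

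**Figure D4:**
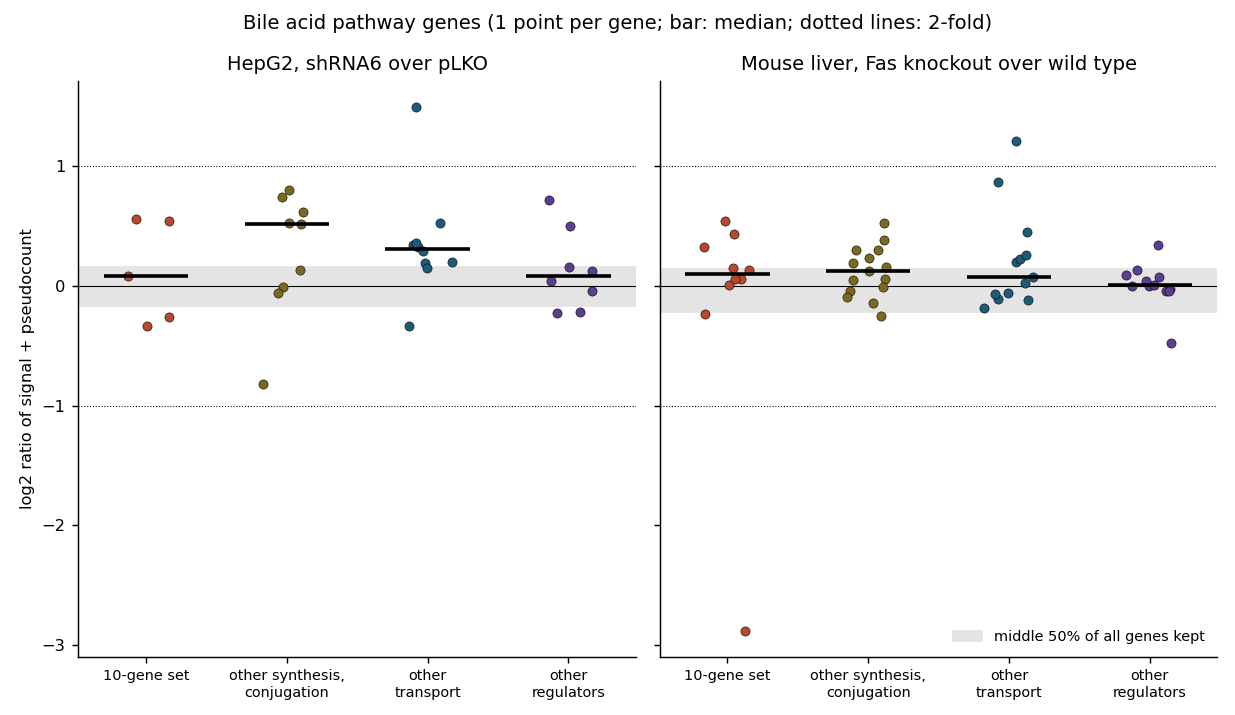
Log2 ratio of each kept bile acid pathway gene in HepG2 shRNA6 over pLKO (left) and Fas knock-out over wild-type liver (right), 1 point per gene and 1 array per group, with the median as a bar and the middle 50% of all genes kept in grey. Dotted lines mark 2-fold. SLC51A (1.49) in HepG2, Slco1a4 (1.21) and Slc10a2 (-2.88) in liver lie beyond them.

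In HeyA8, where most bile acid genes were dim, hairpin shRNA4 left 3 genes kept, of which 1 reached 2-fold, beside 4.76% of all genes kept. That gene was BAAT, with 61.5 in shRNA4 and 10.5 in pLKO (log2 ratio 1.69), and the higher signal was only just above its array's median of 60.2. BAAT passed the filter only through that array, so its place in the count is no support. With hairpin shRNA6, BAAT was 13.7 in shRNA6 and 10.5 in pLKO, both dim. CYP27A1 had 214 in shRNA4 and 213 in pLKO (0.01), and ABCB4 had 58.9 in shRNA4 and 63.1 in pLKO (-0.08). With shRNA6, 0 of the 2 genes kept reached 2-fold, beside 4.22% of all genes kept. CYP27A1 had 170 in shRNA6 and 213 in pLKO (-0.30), and ABCB4 had 33.0 in shRNA6 and 63.1 in pLKO (-0.73). The hairpins share their control array, so these ratios are not independent of each other.

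A knockdown effect common to both lines was not called for any of the 5 genes. In the limma fit 0 of 13936 genes were called (a background of 0%), and 568 had an unadjusted p under 0.05. The fit had 2 residual degrees of freedom. FAS itself, with single log2 ratios of -0.77 in HepG2 and -0.82 and -1.29 with HeyA8 shRNA4 and shRNA6, was also not called. The absence of a call is thus no sign that a gene was unchanged. The common effects were 0.61 ± 0.38 for NR0B2, 0.42 ± 0.60 for BAAT, -0.05 ± 0.16 for CYP27A1, -0.30 ± 0.48 for CYP8B1 and -0.38 ± 0.34 for ABCB4 (SE on the log2 scale, adjusted p from 0.991 to 0.995). The 95% interval of CYP27A1 lay between -0.42 and 0.33, and that of NR0B2 between -0.28 and 1.5, so the precision differed between genes. The direction of CYP27A1, BAAT and CYP8B1 turned when HeyA8 arrays were left out. The knockdown effect in HepG2 minus that in HeyA8 came from a fit with 1 residual degree of freedom, the difference between the HeyA8 hairpins. This gap between the lines was likewise called for 0 of 13936 genes (0%), with 613 at an unadjusted p under 0.05. It was 1.48 ± 0.82 for CYP8B1 (SE, limma adjusted p = 0.999), the widest gap among the 5. Its signal was above the control in HepG2 and below it with both HeyA8 hairpins. In HeyA8, however, CYP8B1 was dim on every array and both ratios share the control array, so no opposite direction can be read from them.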

How the data were processed

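Of 7 total RNA samples, 5 were read on human and 2 on mouse Affymetrix arrays. The authors deposited linear intensities, made with MAS5 per the submitters' processing notes. Its version and settings were not found in the sources used here. Each array's 2% trimmed mean lay between 495.8 and 496.9 after control probe sets were left out, so the arrays share 1 overall scale. The number of arrays limits the precision, and no detection calls were used.

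Symbols came from the platform annotation, which can be old. Of 54675 human probe sets 62 were controls, 41091 had 1 symbol, 1801 several and 11721 none. Of 45101 mouse probe sets 64 were controls, 34945 had 1 symbol, 932 several and 9160 none. Only single-symbol probe sets named genes. All 41037 human probe sets matched to RefSeq by gene identifier kept their symbol. The probe set with the highest mean over the arrays stood for a gene, a cross-hybridising one (_x_at) only where there was no other.

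Log2 ratios used the 25th percentile of a table as pseudocount. Human arrays were fitted with limma 3.58.1 in R 4.3.3 (trended prior variance, Benjamini-Hochberg adjustment over 13936 genes), with cell line and knockdown as terms and, in a second fit, their interaction, and the fit was tested on simulated data. Python 3.11.15, numpy 2.4.6, pandas 2.3.3 and matplotlib 3.10.9 did the rest. The 10 genes were named in every comparison, and other lists by at most 4 genes with the largest ratio or effect. The genes, lists and settings were chosen with earlier results of these data known. Alternatives were a smaller and a larger pseudocount, quantile normalization, equal array medians, no filter or the 75th percentile as filter, the mean over probe sets, 1.5-fold, no variance trend, no cell line or knockdown term, and leaving out each human array.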

Additional observations from a re-analysis of the deposited data

How the results depend on the processing

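Of 142 counts recomputed under the alternatives 121 stayed within 1.5 times, and of 303 values of single genes 287 kept their side of the threshold and their direction, apart from the directions of Cyp8b1 in mouse liver and CYP27A1 in HepG2, both near 0 and given in the text above. This holds for Slc10a2 in mouse liver and for NR0B2 and CYP27A1 between the lines under every setting tried. Between the lines 2 of the 10 genes were called higher in HepG2 with the 75th percentile as filter, which tests fewer genes. Leaving out each human array in turn gave 2 to 4 of them, 2684 to 4223 genes called higher and 2761 to 3816 called lower, the lowest number of higher genes without HepG2 shRNA6. CYP8B1 also did not pass without the variance trend (limma adjusted p = 0.0611) or the filter (0.0694), and BAAT passed at equal medians (0.0430); the cause was not tested. For the common knockdown effect 2 genes were called at equal medians. When single arrays were left out, its value lay between -0.26 and 0.94 for BAAT, with -0.04 without HeyA8 shRNA4, between -0.15 and 0.085 for CYP27A1, with 0.05 without HeyA8 shRNA6, and between -0.94 and 0.54 for CYP8B1. Without a cell line term it was -0.47 for NR0B2. The difference of the knockdown effect was 0.090 for NR0B2 at the larger pseudocount and -0.070 for ABCB4 at equal medians, and the cause was not tested. Genes at least 2-fold different follow the filter and the threshold by construction. Without the filter, with the 75th percentile and at 1.5-fold they were 2255, 69 and 1537 in HepG2, 2134, 56 and 1575 with HeyA8 shRNA4, 1929, 30 and 1324 with HeyA8 shRNA6, and 1555, 44 and 1508 in mouse liver. Of the 10 bile acid genes these held, without the filter, 1 in HepG2, 2 with HeyA8 shRNA4 and 5 with HeyA8 shRNA6, then 0 with the 75th percentile for HeyA8 shRNA4 and 1 at 1.5-fold for HeyA8 shRNA6. No paired analysis was possible because each group has 1 array and the samples carry no shared replicate numbers. Signals near the array medians limit ABCB4, CYP8B1 and BAAT in the human cells, and 1 array per group limits all ratios in mouse liver.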
